A study of Mus musculus with 4 samples.

Results

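The transforming growth factor beta (TGF-beta) and activin genes followed here are 9 of the 32285 genes counted in each library: the ligand genes *Tgfb1*, *Tgfb2*, *Tgfb3* and *Inhba*, the receptor genes *Tgfbr1*, *Tgfbr2* and *Tgfbr3*, the latency gene *Ltbp1*, and *Tgfbi*, a matrix gene named for its induction by TGF-beta. They were chosen by symbol, and each symbol matched 1 row of every table. Single cells of the dissected cardiogenic region of mouse embryos were profiled at E10.5 (embryonic day) with droplet RNA sequencing (scRNAseq). The libraries labelled Tie2flfl (libraries 5 and 7, called control) came from embryos with both *Tie2* alleles floxed and no Cre. The libraries labelled Nfatcre-Tie2flfl (libraries 6 and 8, called *Tie2-cko*) carried the same floxed alleles and in addition the knock-in *Nfatc1Cre*, which drives deletion in the endocardium and its descendants. The methods describe a mixed strain background (129 with C57/BL6), and littermates matched by somite number with 2 hearts of each genotype, but the labels do not say which libraries share a litter or whether a library is 1 heart. With 2 libraries per genotype, p-values measure the spread between these libraries, which may in part be technical, and an exact permutation test of a single value could not go below p = 0.3333.

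TGF-beta ligands are secreted as inactive complexes with their own propeptides, which latent TGF-beta binding proteins such as LTBP1 tether to the matrix. Once released, a ligand brings together a type II receptor (TGFBR2) and a type I receptor (TGFBR1, also known as ALK5), and the type I receptor phosphorylates SMAD2 and SMAD3. TGFBR3, or betaglycan, is a co-receptor that presents ligand to the type II receptor and is known for its affinity for TGF-beta 2. *Inhba* encodes the subunit that forms activin A as a homodimer, which uses its own receptors and the same SMADs. In the embryonic heart the pathway is best known for the endocardial cushions, where endocardial cells (EdCs) undergo the endothelial-to-mesenchymal transition and become cushion mesenchymal cells (MCs) in response to signals from the myocardium of the atrioventricular canal (AVC) and outflow tract (OFT).

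Among 50436 barcodes, 33419 cells were kept, 18546 control and 14873 *Tie2-cko*. The median depth of a library lay between 14898 and 25740 unique molecular identifiers (UMIs, counted molecules) per cell, and pairs of libraries shared 12 to 29 barcodes. Clustering gave 27 clusters and 17 cell types, of which 14 had at least 20 cells in every library. The genotypes were compared in these 14 types and in all cardiomyocytes (CMs) and all MCs, pooled over their types, 16 comparisons in which the cells of the CM and MC types enter a second time. EdCs were split into chamber EdCs (137 to 589 cells per library), led by *Emcn*, *Npr3* and *Gpr182*, and cushion EdCs (124 to 428 cells), led by *Nfatc1* and *Wnt4*, and all 8 fixed EdC markers were present in both. MCs were split into 1 cluster with high *Postn* (Postn-high MCs, 80 to 269 cells) and all other MCs (207 to 1056 cells). The libraries also differed in cell composition along a line other than genotype, whose source the labels do not give: cells of cardiac types made up 46.9% and 37.3% of libraries 5 and 6, against 74.3% and 76.2% of libraries 7 and 8. *Tek*, the gene that encodes TIE2, had levels of 0.876 and 0.999 UMIs per 10000 in control chamber EdCs and 0.124 and 0.146 in *Tie2-cko* chamber EdCs (log2 fold change -2.52, edgeR adjusted p = 0.00292).

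Levels are given throughout as UMIs per 10000: the counts of each cell were scaled to that total and the mean was taken over the cells of a type in 1 library. They are compared between cell types within a gene, never between genes. The cell types were built from the same cells, so levels by cell type are descriptions and carry no test. The 9 genes and 49 other genes of the pathway were left out of the genes used for clustering.

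The 4 ligand genes were highest in 4 different cell types. *Tgfb1*, which lies on chromosome 7 (GRCm38, 25687002 to 25705077, plus strand), was highest in immune or platelet cells and in every endothelial type. Its levels in libraries 5, 6, 7 and 8 were 2.23, 2.16, 0.891 and 1.41 in immune or platelet cells, 1.26, 1.26, 0.793 and 0.811 in cushion EdCs, and 0.894, 0.960, 0.663 and 0.599 in chamber EdCs. Cushion EdCs exceeded chamber EdCs in 4 of 4 libraries, but the ranges of neighbours in the order from immune cells through vascular-like cells and cushion EdCs to chamber EdCs overlapped. The first gap came below chamber EdCs: in Postn-high MCs the highest library reached 0.541. Ventricular CMs had a mean of 0.0190 ± 0.0094 (SD, n = 4 libraries), below that of red blood cells (0.105). Whether this is expression or background was not tested, so no fold over it is given.

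*Tgfb2* (chromosome 1, 186622792 to 186705989, minus strand) was highest in parts of the myocardium and mesenchyme. AVC CMs had levels of 2.33, 3.10, 2.95 and 2.41 in libraries 5 to 8, Postn-high MCs 2.55, 2.44, 2.58 and 2.44, and OFT CMs 2.31, 2.92, 2.11 and 2.38. These 3 cell types overlapped one another and stood above every other type without overlap, the nearest being pharyngeal or neural crest-like mesenchyme with a highest library of 2.05. Working chamber CMs sat far lower, with means of 0.239 ± 0.028 in ventricular and 0.215 ± 0.024 in atrial CMs (SD, n = 4), so that AVC CMs held 8.96 to 13.4 times and OFT CMs 8.87 to 11.3 times the ventricular level of the same library. The cluster called AVC CMs was led by the sinus venosus genes *Shox2* and *Vsnl1* as well as by the AVC genes *Bmp2* and *Rspo3*, and at the finer clustering resolution of 1.2 most of its cells fell into AVC CMs (1078 cells) and sinus venosus CMs (752 cells). *Tgfb2* levels there were 3.46, 3.79, 3.89 and 3.07 in AVC CMs and 1.47, 2.57, 0.990 and 1.29 in sinus venosus CMs, without overlap. Among endocardial cells the order was the reverse of that of *Tgfbr3* below, with cushion EdCs above chamber EdCs by 1.60 to 3.98 times in 4 of 4 libraries.

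*Tgfb3* (chromosome 12, 86056745 to 86079041, minus strand) was sparsely detected everywhere. Its highest level was in epicardial cells, at 0.103, 0.129, 0.0529 and 0.0930 in libraries 5 to 8, above the highest library of the other MCs (0.0482). Chamber EdCs held between 0.00125 and 0.0108, too few UMIs to pass the filter on low counts in the comparison of genotypes.

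*Inhba* (chromosome 13, 16011851 to 16031621, plus strand) was the ligand gene with the narrowest distribution. Postn-high MCs had levels of 0.791, 1.23, 0.979 and 1.22 in libraries 5 to 8, and the other MCs 0.187, 0.201, 0.189 and 0.213. The libraries of these 2 cell types did not overlap, and neither did those of the other MCs and cushion EdCs, the next in order, whose highest library had 0.0803. Within a library Postn-high MCs exceeded the other MCs by at least 4.24 times and cushion EdCs by 15.2 to 36.3 times. *Inhba* was among the 10 leading genes of the Postn-high cluster, so that its height there describes the cluster and is no separate finding.

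**Figure D1:**
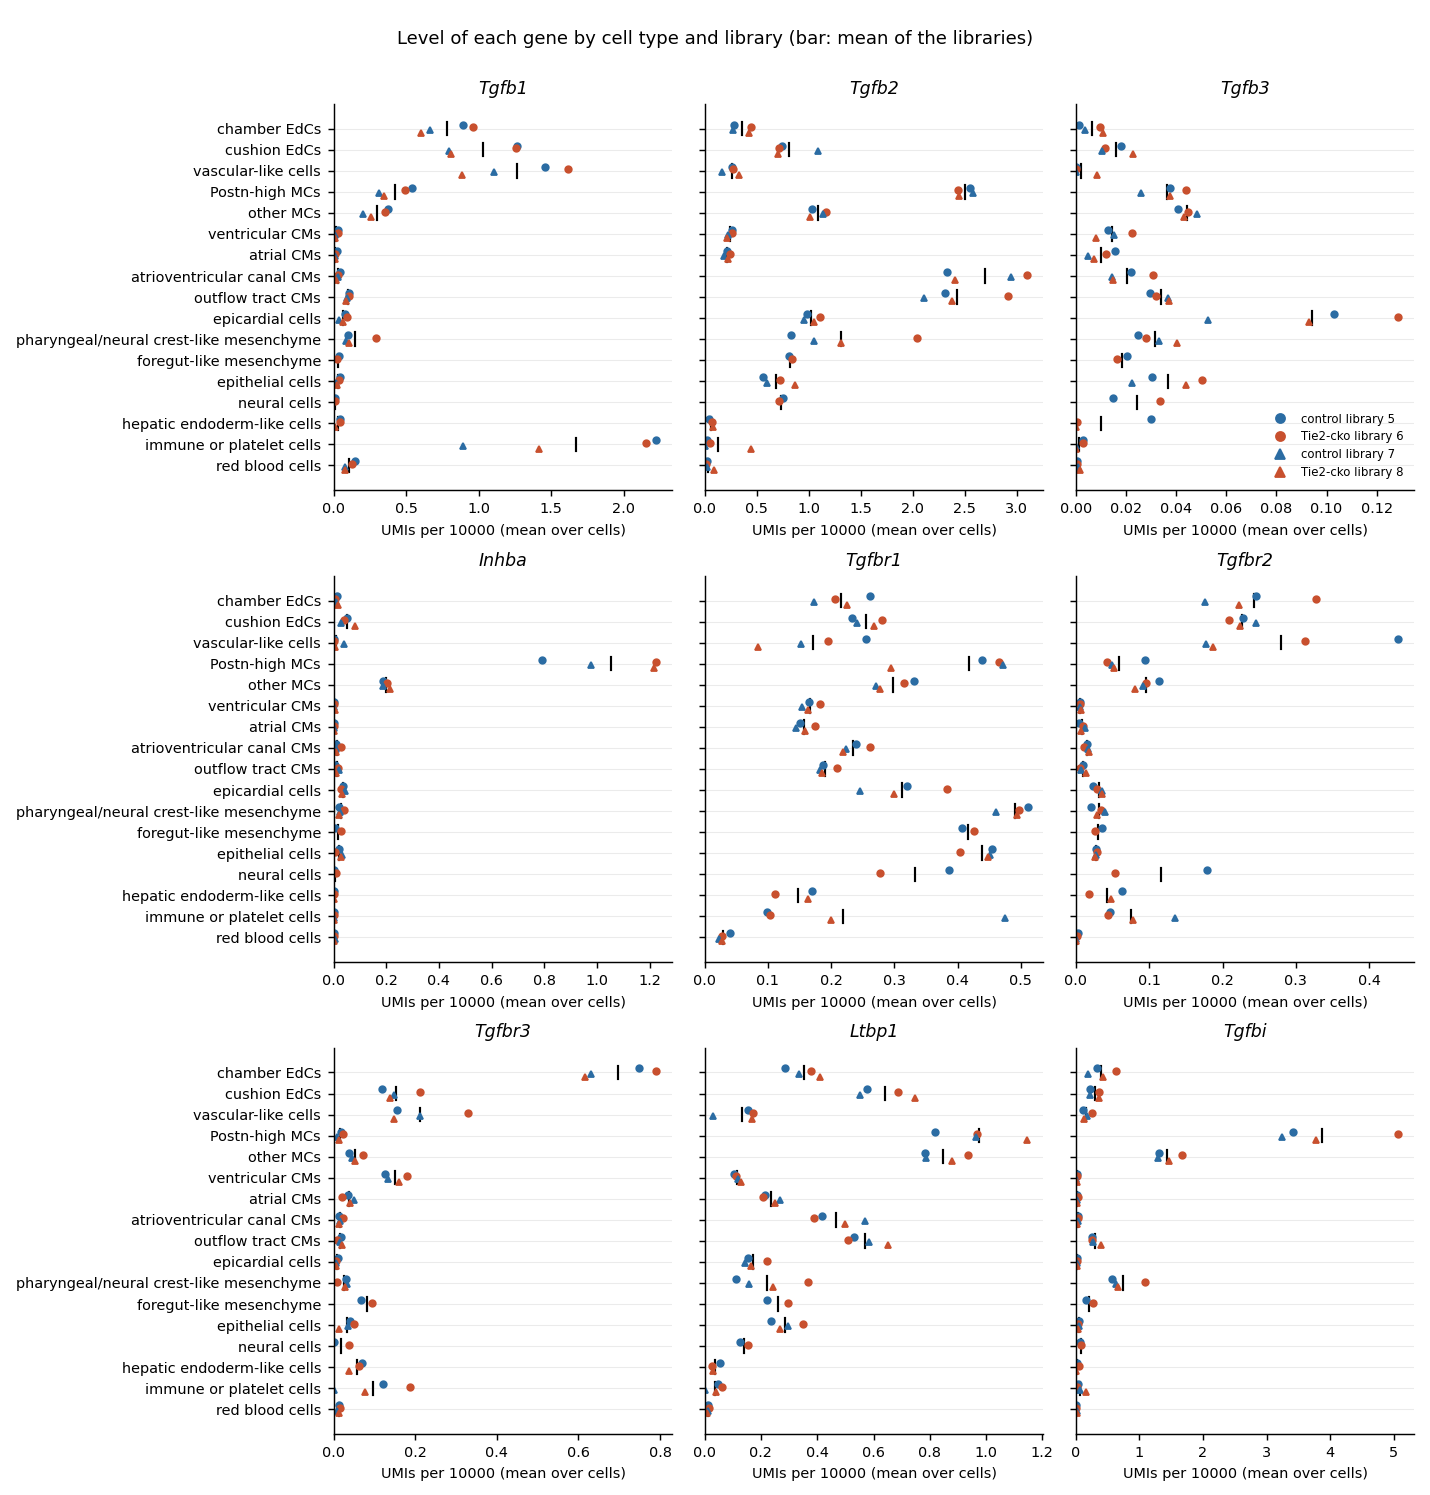
Level of each of the 9 genes by cell type, with 1 point per library (control and *Tie2-cko* in different colours), in UMIs per 10000 averaged over cells, on a linear axis. *Tgfb1* sits highest in immune and endothelial types, *Tgfb2* in AVC CMs, Postn-high MCs and OFT CMs, *Inhba* and *Tgfbi* in Postn-high MCs, and *Tgfbr3* in chamber EdCs, where its libraries lie between 0.616 and 0.791.

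The 3 receptor genes differed in breadth. *Tgfbr1* (chromosome 4, 47353222 to 47414931, plus strand) was detected in all 17 cell types at levels that changed little, from 0.491 ± 0.022 (SD, n = 4) in pharyngeal or neural crest-like mesenchyme to 0.148 in hepatic endoderm-like cells, with red blood cells apart from the rest at 0.0292. EdCs lay in the middle of this order, at 0.255 ± 0.022 in cushion and 0.216 ± 0.037 in chamber EdCs, and overlapped AVC CMs at 0.235 ± 0.019.

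*Tgfbr2* (chromosome 9, 116084293 to 116175360, minus strand), the gene of the type II receptor that binds the ligand first, was highest in the 3 endothelial types. Vascular-like cells had levels of 0.439, 0.312, 0.177 and 0.187 in libraries 5 to 8, chamber EdCs 0.246, 0.328, 0.177 and 0.222, and cushion EdCs 0.227, 0.209, 0.246 and 0.223. The 3 endothelial types overlapped one another, and cushion EdCs exceeded the other MCs by 1.99 to 2.78 times in 4 of 4 libraries. In ventricular CMs the level was 0.00646 ± 0.00063 (SD, n = 4), and chamber EdCs were 28.8 to 53.6 times higher within a library. AVC and OFT CMs, where *Tgfb2* was high, had *Tgfbr2* levels of only 0.0156 ± 0.0027 and 0.00934 ± 0.00383.

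*Tgfbr3* (chromosome 5, 107106570 to 107289629, minus strand) was highest in the endocardium of the chambers. Chamber EdCs had levels of 0.748, 0.791, 0.632 and 0.616 in libraries 5 to 8, with no overlap with any other type, and exceeded cushion EdCs by 3.75 to 6.31 times within a library. Ventricular CMs had 0.149 ± 0.025 (SD, n = 4), which overlapped cushion EdCs at 0.154 ± 0.040. They exceeded atrial CMs by 2.69 to 8.40 times in 4 of 4 libraries. OFT CMs, with a mean of 0.0151, overlapped red blood cells (0.0119).

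*Ltbp1* (chromosome 17, 75005568 to 75392512, plus strand) was highest in mesenchyme, with levels of 0.820, 0.969, 0.965 and 1.15 in Postn-high MCs and 0.782, 0.935, 0.787 and 0.881 in the other MCs. These ranges overlapped, and both lay above the cushion EdCs, whose levels were 0.577, 0.685, 0.554 and 0.748. Cushion EdCs exceeded chamber EdCs by 1.65 to 2.03 times in 4 of 4 libraries. *Tgfbi* (chromosome 13, 56609523 to 56639562, plus strand), which encodes a secreted matrix protein that binds collagens and integrins, had 3.41, 5.07, 3.25 and 3.78 in Postn-high MCs and 1.30, 1.67, 1.29 and 1.46 in the other MCs. There was no overlap between these types or between the other MCs and the next type, and *Tgfbi* was also among the leading genes of the Postn-high cluster. In EdCs the level was 0.398 ± 0.184 in chamber and 0.296 ± 0.084 in cushion cells (SD, n = 4), which overlapped.

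The promoters of *Tgfb2*, *Inhba* and *Tgfbi* are shown because these 3 genes had high levels together in Postn-high MCs. *Ltbp1* was also highest there (mean 0.975), and its promoters are not shown. Each line holds the 250 bases before the RefSeq start of the gene, 5′ to 3′ on the gene's strand, from RefSeq (GRCm38.p6), at chr1:186705990-186706239 on the minus strand for *Tgfb2*, chr13:16011601-16011850 on the plus strand for *Inhba* and chr13:56609336-56609585 on the plus strand for *Tgfbi*. The RefSeq start of *Tgfbi* lies 63 bases downstream of the GENCODE start given above, so the last 63 bases of its window are inside the GENCODE gene. Capitals mark a match on either strand to 1 of 5 short motifs: the TATA box TATAAA, the CRE core TGACGT, the forkhead site GTAAACA, the SMAD box CAGACA and the AP-1 site TGANTCA.
Tgfb2: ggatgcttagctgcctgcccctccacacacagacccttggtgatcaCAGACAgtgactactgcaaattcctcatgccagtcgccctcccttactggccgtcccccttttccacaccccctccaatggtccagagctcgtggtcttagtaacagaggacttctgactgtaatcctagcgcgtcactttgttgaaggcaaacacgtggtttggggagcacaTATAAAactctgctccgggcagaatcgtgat
Inhba: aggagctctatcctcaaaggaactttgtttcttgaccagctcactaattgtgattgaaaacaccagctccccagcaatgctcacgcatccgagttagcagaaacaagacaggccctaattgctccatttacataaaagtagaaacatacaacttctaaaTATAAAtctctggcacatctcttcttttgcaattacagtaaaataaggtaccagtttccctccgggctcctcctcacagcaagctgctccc
Tgfbi: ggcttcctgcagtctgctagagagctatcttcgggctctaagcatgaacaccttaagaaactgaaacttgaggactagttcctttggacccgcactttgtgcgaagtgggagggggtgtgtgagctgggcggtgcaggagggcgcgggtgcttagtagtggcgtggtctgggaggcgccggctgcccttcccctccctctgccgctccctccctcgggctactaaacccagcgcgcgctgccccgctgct
A TATA box began at -31 in *Tgfb2* and at -91 in *Inhba*, counted from the RefSeq start, and 12.4% of 32851 RefSeq promoters of this length held this motif. *Tgfb2* also held the SMAD box at -204, as did 17.1% of all promoters. *Tgfbi* held none of the 5. The forkhead site, the motif bound by FOXO1 among others, was found in 3.17% of all promoters, the CRE core in 6.47% and the AP-1 site in 6.75%, and in none of these 3 windows. A match is a sequence of letters and not a bound site.

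The shares of cells with at least 1 UMI gave the same picture when every cell was sampled down to 5500 UMIs and cells below that depth were dropped. *Inhba* was detected in 24.5% to 35.8% of Postn-high MCs per library (46.3% to 68.8% before thinning, median depth 12434 to 30296 UMIs). In red blood cells, which should lack it and were deeper (22799 to 60176 UMIs), at most 0.198% had a UMI even before thinning. *Tgfb2* was detected in 56.4% to 65.7% of AVC CMs and 9.45% to 13.2% of ventricular CMs, against 0.207% to 2.31% of red blood cells. *Tgfbr3* was detected in 24.5% to 35.0% of chamber EdCs, 6.78% to 13.0% of cushion EdCs and 0.493% to 1.45% of red blood cells. For *Tgfb1*, 1.73% to 7.96% of red blood cells held a UMI, above the 0.616% to 1.69% of ventricular CMs. Red blood cells therefore set no floor for this gene, and whether the ventricular UMIs are background was not tested. Its shares in chamber EdCs (24.6% to 41.5%) were above both ranges.

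Pearson correlations over the 17 cell-type means, on the log2 scale with 0.01 added, describe which genes ran alongside each member among 8345 genes. The cell types share libraries and depth, so no p is given. The closest gene was *Vasn* for *Tgfb3* (r = 0.95), a gene whose product is known to bind TGF-beta, *St6galnac5* for *Inhba* (r = 0.94), *Otud7b* and *Ccn1* for *Tgfb2* (both r = 0.93), *Cbfa2t3* for *Tgfb1* (r = 0.92), *Cldnd1* for *Ltbp1* (r = 0.93) and *Pdlim3* for *Tgfbi* (r = 0.86). *Fstl3*, which encodes a secreted antagonist of activin, was the next but 1 for *Inhba* (r = 0.88). The closest genes to *Tgfbr1*, *Tgfbr2* and *Tgfbr3* were *Btf3l4* (r = 0.98), *Map3k11* (r = 0.97) and *Klhl4* (r = 0.83). Among the members themselves, *Tgfb2* and *Ltbp1* were the most alike (r = 0.86), followed by *Inhba* and *Tgfbi* (r = 0.79), while *Tgfb1* and *Tgfb2* were unrelated (r = -0.03).

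The comparison of genotypes asks whether endocardial loss of TIE2 was accompanied by a different level of these genes. The raw UMIs of each library and cell type were summed and tested with the edgeR quasi-likelihood test, with Benjamini-Hochberg adjustment over all genes tested in that cell type and a threshold of 0.05. Across the 16 comparisons, 131 tests of the 9 members were possible. None passed (lowest adjusted p = 0.399), 9 had an unadjusted p under 0.05, and DESeq2 gave 0 members in the 7 comparisons where it was run. The 9 include *Inhba* both in all MCs and in Postn-high MCs, which share cells. In the comparisons that hold the 9, 0.293% to 4.22% of all genes had such a p in the same direction. A further fit set libraries 5 and 6 apart from 7 and 8 as a block, with 1 residual degree of freedom. It gave 8 member tests past the threshold over the same 7 comparisons, of *Tgfbi*, *Tgfb2*, *Ltbp1* and, in both MC groups, *Inhba*. The adjusted p of this fit is printed with each of them. The block also raised the counts of all genes called, which are given with the processing. For Postn-high MCs and the pharyngeal or neural crest-like mesenchyme these counts are not given. The unadjusted values below are therefore leads with their errors, and not called changes. Fold changes come from the summed counts, in which deep cells weigh more than in the mean levels.

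In chamber EdCs, *Tgfbi* and *Tgfb2* had the largest differences. *Tgfbi* levels were 0.3329 and 0.195 in control libraries 5 and 7, against 0.632 and 0.430 in *Tie2-cko* libraries 6 and 8. Both *Tie2-cko* libraries lay above both controls (log2 fold change 0.92, SE 0.24, unadjusted p = 0.0039, edgeR adjusted p = 0.399, 2.64e-12 with the block). *Tgfb2* levels were 0.285 and 0.274 in control and 0.443 and 0.429 in *Tie2-cko*, again without overlap (log2 fold change 0.42, SE 0.17, unadjusted p = 0.0335, edgeR adjusted p = 0.716, 0.0116 with the block).

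The other 5 members tested in chamber EdCs gave smaller values. *Ltbp1* levels did not overlap, at 0.284 and 0.336 in control and 0.378 and 0.410 in *Tie2-cko*, with a log2 fold change of 0.20 (SE 0.15). *Tgfbr2* had a log2 fold change of 0.19 and *Tgfbr1* of 0.13, with overlapping libraries. *Tgfbr3*, at 0.748 and 0.632 in control and 0.791 and 0.616 in *Tie2-cko*, had a log2 fold change of 0.01, and *Tgfb1* of -0.01. For the last 2 genes the sign turned when single libraries were left out. *Inhba* and *Tgfb3* had too few UMIs to be tested.

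Read as a list in chamber EdCs, 2 of the 7 members tested had an unadjusted p under 0.05 and were higher in *Tie2-cko*, against 4.22% of all 11471 genes (484). 3 of 7 had both *Tie2-cko* libraries above both controls, against 19.1% of all genes, and their median log2 fold change was 0.19 beside 0.01 over all genes. 0.00872% of all genes tested passed the adjusted threshold there, a single gene, *Tek*. Markers of red blood cells, which reach other cells as free RNA, moved with genotype: their summed level in chamber EdCs was 91.0 and 38.1 UMIs per 10000 in control and 14.7 and 13.8 in *Tie2-cko*, lower for 7 of 7 markers. The summed level of the 8 MC markers in chamber EdCs was 0.938 and 0.981 in control and 1.12 and 1.42 in *Tie2-cko* (4 of 8 markers higher without overlap, 2 lower). The part of either in these values was not tested.

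**Figure D2:**
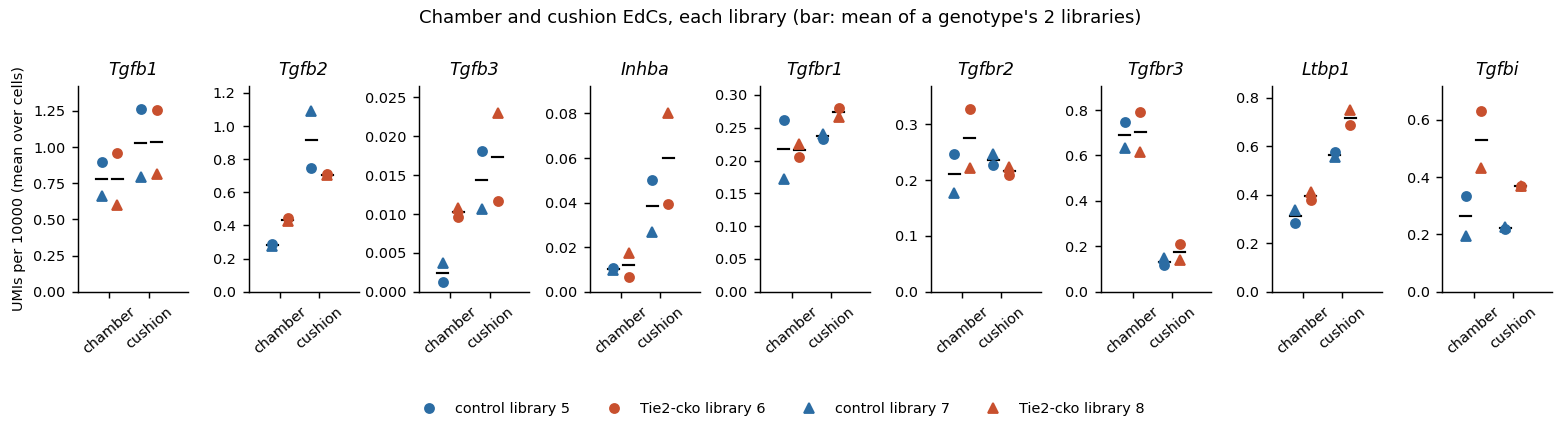
Levels of the 9 genes in chamber EdCs and cushion EdCs, in UMIs per 10000 averaged over cells, with 1 point per library and a bar at the mean of each genotype. In chamber EdCs both *Tie2-cko* libraries lie above both controls for *Tgfb2*, *Tgfbi*, *Ltbp1* and the sparse, untested *Tgfb3*, and in cushion EdCs control library 7 lies highest for *Tgfb2*, at 1.09.

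In cushion EdCs, *Tgfbi* was again the member with the smallest p. Its levels were 0.221 and 0.225 in control and 0.368 and 0.370 in *Tie2-cko*, without overlap (log2 fold change 0.72, SE 0.16, unadjusted p = 0.0018, edgeR adjusted p = 1.00, 0.000106 with the block). *Ltbp1* levels were 0.577 and 0.554 in control and 0.685 and 0.748 in *Tie2-cko* (log2 fold change 0.35, SE 0.15, unadjusted p = 0.051). *Tgfb2* went the other way, at 0.745 and 1.09 in control and 0.710 and 0.704 in *Tie2-cko* (log2 fold change -0.35, SE 0.20, unadjusted p = 0.111), and its summed counts overlapped between genotypes. The summed level of the 8 MC markers in cushion EdCs was 4.01 and 4.02 in control and 4.76 and 4.55 in *Tie2-cko* (5 of 8 markers higher without overlap, 0 lower), and that of the 7 red blood cell markers 70.1 and 35.4 in control and 13.08 and 11.96 in *Tie2-cko* (5 of 7 lower). The part of either in these values was not tested. 1 of 9 members had an unadjusted p under 0.05 and was higher in *Tie2-cko*, against 0.907% of all genes, and 3 of 9 did not overlap upwards, against 17.2%. Of all 11247 genes tested in cushion EdCs 0% passed the adjusted threshold with edgeR, 215 had an unadjusted p under 0.05 and 7 passed with DESeq2. *Tek* itself had a log2 fold change of -2.53 and an adjusted p of 0.0512, so that the gene deleted by design also missed the threshold there.

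The effect on *Tgfb2* differed between the endocardial types. A test of the difference itself, with library as a block, gave 0.77 (SE 0.15, edgeR adjusted p = 0.0459) for the log2 fold change in chamber minus that in cushion EdCs, in a comparison where 0.361% of all 11915 genes passed (43). The call was lost with RLE size factors (adjusted p = 0.0648), without control library 7 (0.60, adjusted p = 0.671) and without *Tie2-cko* library 8 (0.57, adjusted p = 0.110), the difference keeping its sign in 8 of 8 alternatives. For *Tgfbi*, whose values were higher in *Tie2-cko* in both types, the difference was 0.21 (SE 0.22, adjusted p = 0.847), and for the 7 remaining members the adjusted p was at least 0.710.

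**Figure D3:**
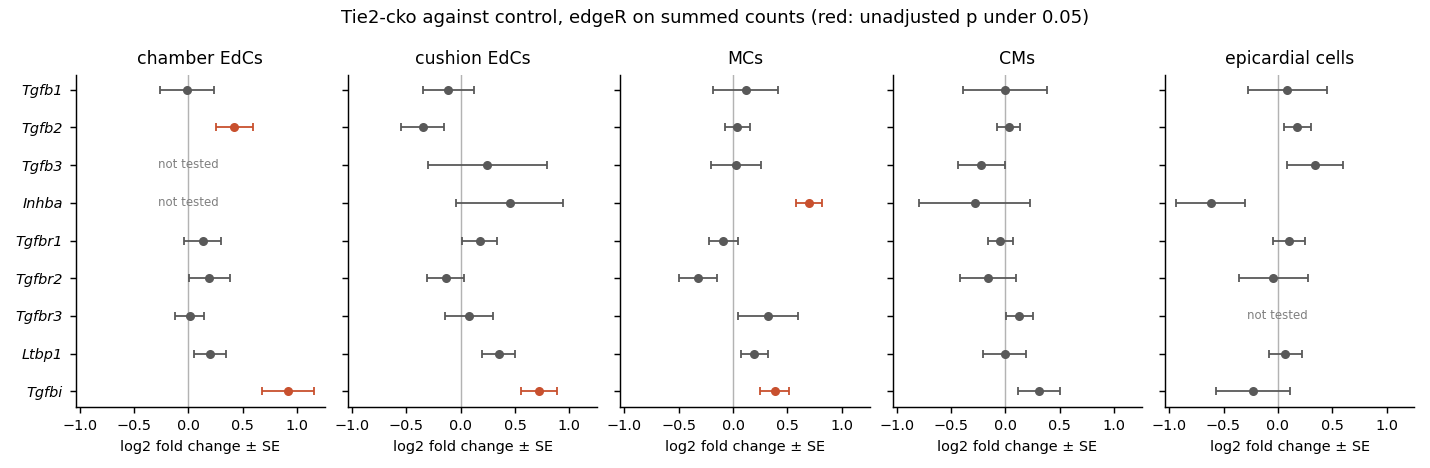
Log2 fold change of each member, *Tie2-cko* against control, with its SE from the edgeR fit of summed counts (2 libraries per genotype), by cell type. *Tgfbi* has the largest value in chamber EdCs (0.92) and cushion EdCs (0.72) and *Inhba* in MCs (0.70), and a cell type in which a gene had too few counts is marked as not tested.

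In MCs, which descend in part from the endocardium and where *Tek* levels were 0.152 and 0.278 in control and 0.0395 and 0.0348 in *Tie2-cko*, the leading member was *Inhba*. Its levels were 0.314 and 0.312 in control and 0.487 and 0.454 in *Tie2-cko* (log2 fold change 0.70, SE 0.12, unadjusted p = 0.00059, edgeR adjusted p = 0.693, 9.14e-11 with the block). The 2 genotypes did not overlap. *Tgfbi* levels were 1.75 and 1.60 in control and 2.62 and 2.02 in *Tie2-cko* (log2 fold change 0.38, SE 0.13, unadjusted p = 0.022, edgeR adjusted p = 0.9997, 0.00323 with the block). 2 of 9 members had an unadjusted p under 0.05 and were higher in *Tie2-cko*, against 0.481% of all 12692 genes, and 4 of 9 did not overlap upwards, against 16.2%. Of all genes tested 0% passed the adjusted threshold with edgeR, 131 had an unadjusted p under 0.05 and 9 passed with DESeq2.

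Because *Inhba* was concentrated in Postn-high MCs, the share of that cluster enters its level in all MCs. The same holds for *Tgfbi*, which Postn-high MCs held at 2.51 to 3.03 times the level of the other MCs of a library. Postn-high cells made up 21.1% and 15.6% of control MCs, in libraries 5 and 7, but 27.9% and 24.0% of *Tie2-cko* MCs, in libraries 6 and 8. Within Postn-high MCs the *Inhba* levels were 0.791 and 0.979 in control and 1.23 and 1.22 in *Tie2-cko* (log2 fold change 0.56, SE 0.17, unadjusted p = 0.0094, edgeR adjusted p = 0.99996, 0.00117 with the block), and within the other MCs the log2 fold change was 0.25 (SE 0.15, unadjusted p = 0.144). The difference in all MCs was thus larger than in either of its parts. In Postn-high MCs 1 of 7 members tested had an unadjusted p under 0.05 and was higher in *Tie2-cko*, against 0.9% of all 10002 genes, and 3 of 7 did not overlap upwards, against 15.8%. *Tgfb2* levels there were nearly equal, at 2.55 and 2.58 in control and 2.44 and 2.44 in *Tie2-cko*. In Postn-high MCs the EdC markers summed to 1.04 and 1.08 in control and 1.14 and 1.07 in *Tie2-cko*. The MC markers summed to 17.3 and 17.1 against 21.0 and 18.4 (4 of 8 higher without overlap), the epicardial markers to 0.0888 and 0.161 against 0.179 and 0.334 (4 of 8 higher) and the red blood cell markers to 61.0 and 34.0 against 11.49 and 10.3 (7 of 7 lower). Their part in these values was not tested.

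**Figure D4:**
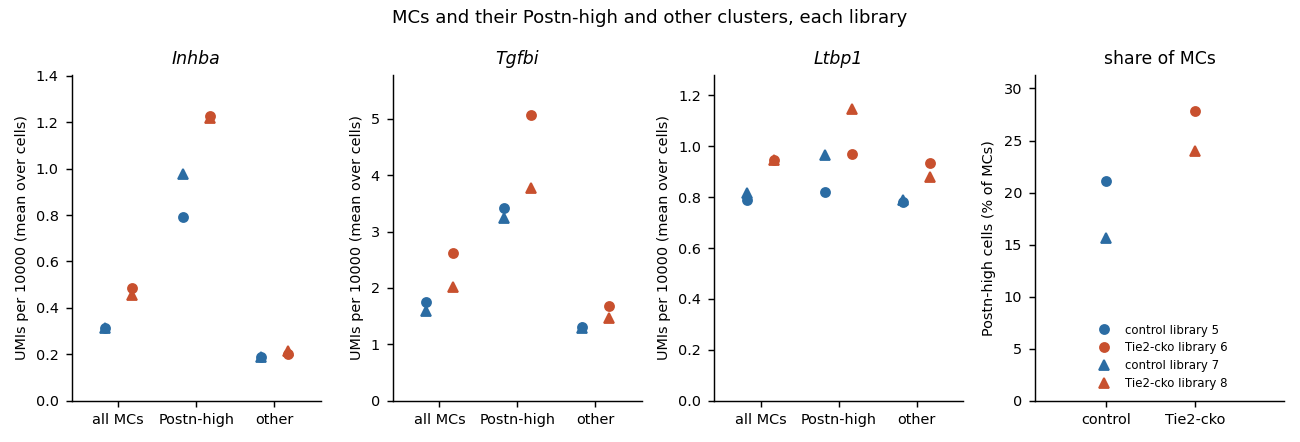
Levels of *Inhba*, *Tgfbi* and *Ltbp1* in Postn-high MCs, the other MCs and all MCs, in UMIs per 10000 with 1 point per library, and the share of Postn-high cells among MCs in percent. Both *Tie2-cko* libraries lie above both controls in every panel, including the share (21.1 and 15.6% in control, 27.9 and 24.0% in *Tie2-cko*).

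In CMs none of the 9 members had an unadjusted p under 0.05. Their log2 fold changes lay between -0.29 and 0.31, and 0% of 15583 genes passed the adjusted threshold with edgeR, with 61 under an unadjusted p of 0.05 and 2 passing with DESeq2. *Tgfb2* levels in CMs were 0.839 and 0.930 in control and 0.986 and 0.849 in *Tie2-cko*, which overlapped. In epicardial cells none of the 8 members tested had an unadjusted p under 0.05, in a comparison where 0.042% of genes passed the adjusted threshold, all 5 of them globin genes. *Inhba* levels there were 0.0367 and 0.0413 in control and 0.0279 and 0.0303 in *Tie2-cko* (log2 fold change -0.62, SE 0.32, unadjusted p = 0.087). In the other 11 comparisons together 0.00702% of tests passed, and no member did.

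Outside the endocardial lineage, the pharyngeal or neural crest-like mesenchyme held the most members past the size set for naming. *Ltbp1* levels were 0.112 and 0.158 in control and 0.368 and 0.242 in *Tie2-cko* (log2 fold change 1.06, SE 0.27, unadjusted p = 0.0021, edgeR adjusted p = 0.988, 0.00348 with the block), and *Tgfb2* levels 0.827 and 1.05 in control and 2.05 and 1.32 in *Tie2-cko* (0.93, SE 0.29, unadjusted p = 0.0077, edgeR adjusted p = 0.988, 0.000785 with the block). *Tgfb1* and *Tgfbi* had log2 fold changes of 0.87 and 0.57 and *Tgfbr3* of -0.61, each without overlap. *Tie2-cko* library 6 stood apart in this cell type with 85 cells, against 460 to 701 in the other libraries, and was the extreme library for all 5 genes. Without it the log2 fold changes were 0.88 for *Ltbp1*, 0.54 for *Tgfb2*, 0.07 for *Tgfb1*, 0.15 for *Tgfbi* and -0.39 for *Tgfbr3*. Without *Tie2-cko* library 8 *Tgfb1* reached 1.58, *Tgfbi* 0.93 and *Tgfbr3* -1.43. 2 of 9 members had an unadjusted p under 0.05 and were higher in *Tie2-cko*, against 2.79% of all genes. 4 of 9 did not overlap upwards and 1 downwards, but the share of all genes without overlap was not taken in this cell type. The summed epicardial markers in these cells were 0.360 and 0.622 in control and 0.815 and 1.06 in *Tie2-cko*, and their part in these values was not tested. At the clustering resolution of 1.2 this type held 472, 53, 308 and 463 cells in libraries 5 to 8, against 540, 85, 460 and 701. An unnamed cluster led by *Rgs5* then held 65, 38, 192 and 308 cells. The part of cell makeup in these values was not tested either.

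The remaining values past the size set for naming were few. *Ltbp1* in vascular-like cells had 0.152 and 0.0308 in control and 0.172 and 0.169 in *Tie2-cko* (log2 fold change 0.82, unadjusted p = 0.091). *Tgfb2* in immune or platelet cells had 0.0235 and 0 in control and 0.0476 and 0.444 in *Tie2-cko*, a difference that rested on library 8 with 36 cells (log2 fold change 2.37, unadjusted p = 0.133). In epithelial cells *Tgfb3* and *Tgfbi* had log2 fold changes of 0.70 and -0.76. *Tgfb1* had -1.41 there (unadjusted p = 0.039, against 0.293% of all genes lower at that p), although its mean level over cells was 0.0300 in control and 0.0283 in *Tie2-cko* with overlapping libraries. The epithelial type pooled unlike clusters. The cluster led by *Pax9* gave 253, 30, 244 and 319 of its 511, 286, 248 and 325 cells in libraries 5 to 8. The part of this makeup in the epithelial values was not tested.

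The other 49 genes of the pathway list gave counts of the same kind, with 0 past the adjusted threshold in any of the 16 comparisons. In chamber EdCs 36 were tested, 6 had an unadjusted p under 0.05 and all 6 were higher in *Tie2-cko*, against 4.22% of all genes in that direction. They were 1 target, *Ccn2* (log2 fold change 1.95, adjusted p = 0.144), a gene of a matricellular protein induced by TGF-beta; 2 genes of latency and activation, *Thbs1* (1.18), whose product can release latent TGF-beta, and *Lrrc32* (1.05), which encodes a cell-surface anchor for it; 2 extracellular antagonists, *Dcn* (1.64) and *Fst* (1.01); and the inhibitory SMAD gene *Smad7* (0.48). *Ccn2* levels were 0.0268 and 0.0321 in control and 0.139 and 0.142 in *Tie2-cko*, and *Smad7* levels 0.579 and 0.492 in control and 0.746 and 0.798. Neither overlapped. *Dcn*, a leading gene of epicardial cells, had 0.00736 and 0.0112 in control and 0.0323 and 0.0295 in *Tie2-cko*, while the summed epicardial markers in chamber EdCs were 0.0769 and 0.155 in control and 0.121 and 0.137 in *Tie2-cko*. For *Fst* the mean level over cells went the other way, from 0.0415 in control to 0.0273 in *Tie2-cko*, with overlap. None of the 6 receptor genes tested had an unadjusted p under 0.05 in chamber EdCs, and their median log2 fold change was 0.24.

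In cushion EdCs 39 of the list were tested and 1 had an unadjusted p under 0.05, *Col1a1* (log2 fold change 1.15), which encodes a fibrillar collagen chain, against 0.907% of all genes higher in *Tie2-cko*. None of 44 tested in CMs and of 42 in MCs did, and in epicardial cells 2 of 39 did, *Junb* (0.52) and *Cdkn1a* (0.81), against 0.63% of all genes in that direction. In the pharyngeal or neural crest-like mesenchyme 6 of 39 did, *Fstl3* (1.30), *Thbs1* (0.93), *Col1a1* (0.83), *Furin* (0.66), *Fbn1* (0.65) and the fibronectin gene *Fn1* (0.55), all higher, against 2.79%. Elsewhere the values of this kind were few. Of the list, 1 of 31 tested was higher in vascular-like cells (*Fbn2*, 0.59, against 0.571% of all genes), 1 of 39 in AVC CMs (*Dcn*, 1.17, against 0.688%), 2 of 36 in OFT CMs (*Dcn*, 1.63, and *Col1a1*, 0.58, against 0.524%) and 1 of 27 in immune or platelet cells (*Lrrc32*, 2.87, against 0.505%). In Postn-high MCs 1 of 33 was higher (*Cdkn1a*, 0.56, against 0.9%) and 1 lower (*Acta2*, -0.74, against 1.14%), and 1 of 42 was lower in ventricular CMs (*Tagln*, -0.66, against 0.362%) and 1 of 38 in atrial CMs (*Smad4*, -0.46, against 0.45%). In the test of chamber against cushion EdCs, *Thbs1* was the only gene of the list past the threshold, with a difference of 1.03 (SE 0.20, edgeR adjusted p = 0.0387). Its levels were 0.126 and 0.0552 in control and 0.147 and 0.189 in *Tie2-cko* chamber EdCs, and 1.71 and 1.27 in control and 1.75 and 1.70 in *Tie2-cko* cushion EdCs. The call was lost with RLE size factors (adjusted p = 0.0605) and without control library 7 (0.77, adjusted p = 0.589).

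**Figure D5:**
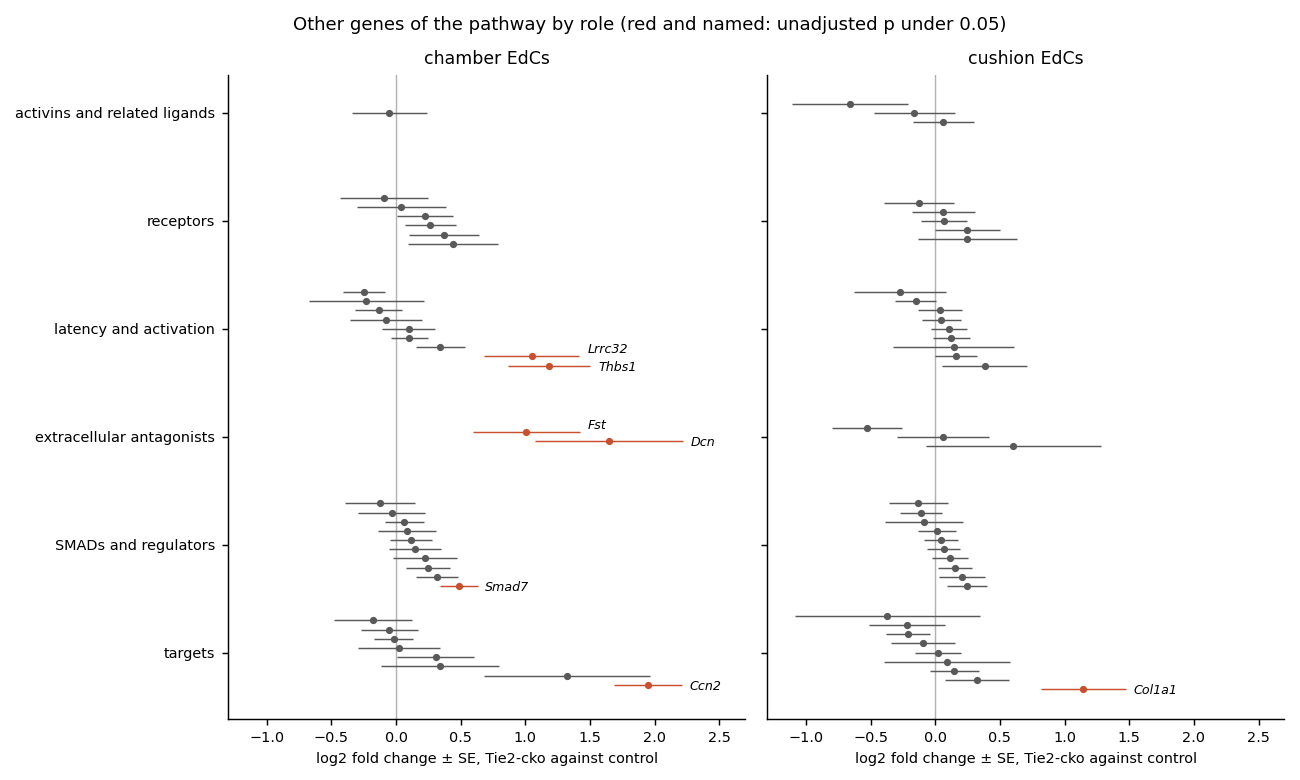
Log2 fold change with its SE, *Tie2-cko* against control, of the other genes of the pathway list in chamber EdCs and cushion EdCs, by role, with genes of an unadjusted p under 0.05 in red and named. The 6 named genes of chamber EdCs lie to the right of 0, and 1 gene is named in cushion EdCs.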

How the data were processed

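The deposited values are raw counts of UMIs by gene and barcode. The authors produced them with Cell Ranger (version 6.1.2 per the file headers; the methods name another version) against mm10 per the submitters' processing notes; other upstream settings are not given in the sources used here. Each library is 1 table of 32285 genes, with 169361996 to 259775540 UMIs. Barcodes entered the analysis from 500 genes and 1000 UMIs upwards, with mitochondrial UMIs of 10% or less, and 2729 cells with the highest Scrublet scores (scanpy 1.11.5) were taken out as doublets, 0.8% of a library for every 1000 barcodes. Cells were clustered with Seurat 5.3.0 (2000 variable genes, 30 principal components, resolution 0.8) without the members, the pathway list and *Tek*. A cluster was named from at least 3 present markers and more than 0.5 of a list, a marker counting as present at 0.25 of its highest cluster level, and Postn-high MCs were the MC cluster with at least 0.5 of the highest *Postn* level; 3 clusters of low UMI count and 3 others (1112 cells) stayed unnamed. Of the latter, 2 held too few markers of any list, and 1 with 6 of the 8 MC markers (144 and 11 control, 169 and 3 *Tie2-cko* cells) fell under 0.1 of the highest *Postn* level, a limit set after the clusters had been seen.

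Sums of raw counts over the cells of a type in each library were compared between genotypes with the edgeR 4.0.16 quasi-likelihood test (TMM, filterByExpr, Benjamini-Hochberg over all genes tested, R 4.3.3), with DESeq2 1.42.0 as an alternative. The paper's methods name Seurat and sc-UniFrac but no test across libraries. The paper lists *Tgfbi* among matrix-associated genes raised in mutant cells of the endocardial cluster that it reads as atrial and ventricular. The fits, and no other step, were tested on simulated counts with 200 changed genes. Each was changed by a log2 fold change of 1 up or down, so the shares below do not hold for smaller changes. In these, edgeR called 65.5% of the changed genes in chamber EdCs and 59% in cushion EdCs, with 13 and 10 false calls. It called 51% in CMs, 63% in MCs and 64% in epicardial cells, with 13, 33 and 31 false calls. Shares are of cells thinned to 5500 UMIs. Positions are from GENCODE (GRCm38), and promoters from a RefSeq table that held 7 of the 9 members. *Tgfb3* and *Tgfbr3* have no entry there.

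The members, the pathway list and the tests were chosen with earlier results of these data known. The genes named are the members and, of the pathway list, those with an unadjusted p under 0.05. Fold changes of members outside chamber EdCs are given for an unadjusted p under 0.05, or for an absolute log2 fold change of at least 0.5 with groups that do not overlap, and a few others were named after their values were seen. Alternatives were another normalization, no filter, DESeq2, a block for libraries 5 and 6, each library left out, a stricter cell filter, no doublet removal, 2 other resolutions and the members kept among the variable genes. The difference between chamber and cushion EdCs was not rerun with DESeq2, the other resolutions or the members kept. Cell counts limit the precision, which is lowest for *Tgfb3* and for *Inhba* outside MCs.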

Additional observations from a re-analysis of the deposited data

Results flagged for a closer look

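The log2 fold change of *Tgfb2* was 0.77 higher in chamber EdCs than in cushion EdCs (SE 0.15, edgeR adjusted p = 0.0459 in a test of the difference with library as a block, range over its alternatives 5.04e-05 to 0.671). Its level was higher in *Tie2-cko* chamber EdCs in 2 of 2 libraries and lower in *Tie2-cko* cushion EdCs in 2 of 2, with the highest cushion value in control library 7 (1.09, against 0.745 in control library 5). The difference was positive in 8 of 8 alternatives and past the threshold in 5.

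The log2 fold change of *Thbs1*, whose product can release latent TGF-beta, was 1.03 higher in chamber EdCs than in cushion EdCs (SE 0.20, edgeR adjusted p = 0.0387, range over its alternatives 4.71e-05 to 0.589), with the same sign in 8 of 8 alternatives and past the threshold in 6. The mean level in cushion EdCs was 1.49 in control and 1.72 in *Tie2-cko*, with overlapping libraries. For *Thbs1* and *Tgfb2* alike, the 8 alternatives did not include DESeq2 or any new clustering at another resolution or with the members kept.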

How the results depend on the processing

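No pairs can be read from the labels, whose numbers differ between the genotypes. A block that sets libraries 5 and 6 apart from 7 and 8, known from an earlier analysis of these data and from cell composition, leaves 1 residual degree of freedom and raised the count of all genes called to 772 in chamber EdCs, 83 in cushion EdCs, 66 in CMs, 101 in MCs and 67 in epicardial cells, and the count of members to 2 in chamber EdCs (*Tgfbi* and *Tgfb2*), 1 in cushion EdCs (*Tgfbi*), 2 in MCs (*Inhba* and *Tgfbi*), 1 in Postn-high MCs (*Inhba*) and 2 in pharyngeal or neural crest-like mesenchyme (*Tgfb2* and *Ltbp1*). Without the filter on low counts, the calls were 157 in chamber EdCs, 29 in cushion EdCs, 25 in MCs and 12 in epicardial cells, with 1 member in chamber EdCs (*Tgfbi*), 1 in MCs (*Inhba*) and 2 in the pharyngeal or neural crest-like mesenchyme. DESeq2 gave 25 genes in chamber EdCs, 7 in cushion EdCs, 2 in CMs and 9 in MCs. RLE size factors gave 2 genes in cushion EdCs and 16 in the difference between chamber and cushion EdCs, with 0 members in the latter. The stricter cell filter gave 0 in chamber EdCs, 5 in cushion EdCs and 87 in the difference, no removal of doublets 1 in cushion EdCs, 1 in epicardial cells and 68 in the difference, resolution 1.2 gave 5 and the members kept among the variable genes 2 in cushion EdCs. The main counts were 1, 0, 0, 0, 5 and 43 in the same order of cell types. With 1 library left out, the counts lay between 15 and 140 in chamber EdCs, 16 and 50 in cushion EdCs, 0 and 11 in CMs, 0 and 15 in MCs, 6 and 63 in epicardial cells and 1 and 166 in the difference. The lone library was then assumed to vary like the pair. Members called ranged from 0 to 1 in chamber EdCs and in the difference and from 0 to 2 in the pharyngeal or neural crest-like mesenchyme. *Tgfbi* passed in chamber EdCs without library 5, 6 or 8 and not without library 7 (log2 fold change 0.58 to 1.33 over its 13 alternatives). In chamber EdCs with 1 library left out, *Tgfbr3* lay between -0.051 and 0.070, turning negative without library 6 (-0.04) or 7, and *Tgfb1* between -0.42 and 0.30, turning positive without library 5 (0.25) or 8; the cause was not tested. The cell type with the highest level was kept for 9 of 9 members except under the stricter cell filter (7, *Tgfb2* moving to Postn-high MCs and *Tgfbr1* to epithelial cells), resolution 0.4 and without library 5 (8 each, *Tgfbr2*). Of the 182 alternative values of these counts and of the highest cell types, 57 moved to or from 0 or by more than a set factor. The 378 other values were fold changes and levels, and 331 were scored as unchanged. Fold changes had to keep their direction and side of the threshold, and levels had to stay within the SD over libraries. Of the rest, 4 fold changes turned their sign, 3 levels moved and the others crossed the threshold. The alternatives for Postn-high MCs and the pharyngeal or neural crest-like mesenchyme were chosen after seeing the data.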

Other observations

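The level of *Tgfb1* was higher in both library 5 and library 6 than in both library 7 and library 8 in 11 of the 14 separate cell types with 4 libraries, and lower in none of them. *Tgfbr1* showed this split in 8 of 14 cell types and the reverse in 1, and each of the other members showed it in 1 to 4. The share of all genes with this split was not computed. Libraries 5 and 6 are of different genotypes and held the larger share of non-cardiac cells. Both *Tie2-cko* libraries lay above both controls in 8 of 14 cell types for *Tgfb2*, 8 for *Tgfbi* and 7 for *Ltbp1*, and below in 2, 1 and 0. Each of the other members lay above in 0 to 3 cell types and below in 0 to 2. Of all genes tested, 19.1% lay above in this way in chamber EdCs, 17.2% in cushion EdCs and 15.8% in Postn-high MCs. That share is not given here for the other separate cell types. Cell types of a library share their preparation, so that these counts are not independent.

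The separation of chamber and cushion EdCs by *Tgfbr3* (0.697 against 0.154) and by *Tgfb2* (0.358 against 0.812), in opposite directions, held in 4 of 4 libraries.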
